A study of Mus musculus with 8 samples.

Results

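The simple keratin genes Krt8, Krt18, Krt19 and Krt7, the epithelial surface gene Epcam, Clca3a2, the milk protein genes Csn2, Csn3 and Csn1s1, and Elf5 were followed across 8 arrays of mouse sciatic nerve. These 10 genes were picked by name, with levels on all 8 arrays in view, and stand among 18194 genes that the array annotation names and 12094 genes bright enough to test. The study set c-Jun mutant against control nerve, cut and uncut, around the question of what c-Jun does in Schwann cells, the glia of peripheral nerve, after injury. RNA came from the distal stump of adult mice 7 days after a cut at the sciatic notch, and from the intact nerve of the other side. There were 2 arrays in each of 4 groups: mutant cut (genotype label c-Jun KO), control cut (WT), mutant uncut (c-Jun KO) and control uncut (WT). Each array held nerves pooled from several mice, and the labels describe the replicates as independent samples. They name neither the allele nor a Cre driver, and they do not say whether cut and uncut nerves of a replicate number came from the same mice. Values are log2 expression values, normalised by RMA (which equalises the spread of values between arrays), so a difference of 1 is a doubling of signal.

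Keratins are the intermediate filament proteins of epithelial cells. In simple (single-layered) epithelia Krt8 pairs with Krt18, and Krt7 and Krt19 are further members of the same set, while Epcam is an adhesion protein of most epithelia. Caseins (Csn2 beta-casein, Csn3 kappa-casein, Csn1s1 alpha-S1-casein) are the main milk proteins of mammary alveolar cells, and Elf5 is a transcription factor that drives the formation of those cells. Clca3a2 belongs to the Clca family, secreted proteins named for their link to calcium-activated chloride currents. None of these genes is known as a marker of Schwann cells.

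The libraries were first set against what they are labelled as. The labels call the tissue Schwann cell, but the material was a length of whole nerve, which also holds fibroblasts, vessels and immune cells. All 5 Schwann cell genes that the annotation names (Sox10, S100b, Mbp, Pmp22 and Egr2) lay above the array median on all 8 arrays, and the list averaged 11.22 to 11.34 on the mutant cut arrays, 11.03 to 11.07 on the control cut, 12.63 to 12.82 on the mutant uncut and 12.80 to 12.88 on the control uncut arrays. Jun itself read 10.39 and 10.80 in mutant cut nerve, against 11.88 and 11.96 in control cut nerve, a difference of -1.33 (limma, adjusted p = 0.00866), past the threshold in 15 of 18 alternatives and not without control cut replicate 1 (0.0631) or 2 (0.0574), nor with the cut arrays alone (0.0580). In uncut nerve it read 9.62 and 9.59 in mutants and 9.58 and 9.70 in controls, so the label was checked by cut nerve alone. The array medians lay between 6.59 and 6.65 and the 25th percentiles between 4.95 and 5.01. These marks are used below, since no detection calls are given in the sources used here.

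The starts of 4 of the genes are shown, as 2 pairs of neighbours with no other protein-coding gene between them whose levels moved together: Krt8 with Krt18, and the caseins Csn2 with Csn1s1. Windows run from 250 bases before to 50 after the start of the gene, 5′ to 3′ on the gene's strand, from RefSeq (GRCm38.p6), which supplied them for 8 of the 10 genes. They lie at chr15:102004293-102004592 (minus strand, Krt8), chr15:102027966-102028265 (plus, Krt18), chr5:87699376-87699675 (minus, Csn2) and chr5:87665958-87666257 (plus, Csn1s1). Capitals mark matches to any of 3 motifs searched on both strands: TGANTCA, the core bound by Jun-Fos (AP-1) dimers, TTCNNNGAA, the core bound by STAT factors such as Stat5, which carries the prolactin signal, and the TATA box core TATAAA.
Krt8: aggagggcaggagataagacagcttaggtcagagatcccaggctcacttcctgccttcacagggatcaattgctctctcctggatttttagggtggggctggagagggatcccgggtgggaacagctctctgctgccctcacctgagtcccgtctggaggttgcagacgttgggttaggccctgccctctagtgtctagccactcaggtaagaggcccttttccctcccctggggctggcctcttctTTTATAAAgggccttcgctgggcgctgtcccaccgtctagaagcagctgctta
Krt18: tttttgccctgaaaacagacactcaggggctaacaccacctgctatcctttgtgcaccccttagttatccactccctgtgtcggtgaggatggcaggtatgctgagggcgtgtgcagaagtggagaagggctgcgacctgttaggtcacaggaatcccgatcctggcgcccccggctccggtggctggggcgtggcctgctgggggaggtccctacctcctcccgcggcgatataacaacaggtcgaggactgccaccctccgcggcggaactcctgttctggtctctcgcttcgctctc
Csn2: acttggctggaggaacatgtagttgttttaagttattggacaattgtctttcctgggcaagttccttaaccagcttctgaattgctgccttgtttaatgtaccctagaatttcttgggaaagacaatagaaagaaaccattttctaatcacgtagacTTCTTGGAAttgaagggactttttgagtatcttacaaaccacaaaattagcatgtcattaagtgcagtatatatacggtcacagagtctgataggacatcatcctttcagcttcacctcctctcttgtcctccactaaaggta
Csn1s1: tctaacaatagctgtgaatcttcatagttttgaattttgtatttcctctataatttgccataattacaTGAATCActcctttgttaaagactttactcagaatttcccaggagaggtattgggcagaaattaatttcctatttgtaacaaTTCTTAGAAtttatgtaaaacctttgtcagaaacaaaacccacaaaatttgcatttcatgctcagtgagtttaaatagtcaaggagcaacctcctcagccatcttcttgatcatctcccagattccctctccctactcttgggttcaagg
Among these 4 windows the AP-1 letters occurred in that of Csn1s1, and 7.81% of 32851 mouse promoter windows hold them. The STAT letters occurred in both casein windows, against 8.3% of all windows. The Krt8 window held TATAAA, read on both strands as the overlapping run TTTATAAA at the annotated start, against 13.6% of all windows. The Krt18 window held none of the 3 motifs. A match is a description of the letters, not a bound site.

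Krt8 and Krt18 were bright in cut nerve of both genotypes and in uncut mutant nerve, and dim in uncut control nerve alone. Krt8 read 8.63 and 9.17 in mutant cut nerve, 9.18 and 9.92 in control cut nerve, 8.54 and 8.48 in mutant uncut nerve, and 5.73 and 6.13 in control uncut nerve. Krt18, its partner in the filament, read 10.38 and 10.94 in mutant cut nerve, 10.35 and 11.27 in control cut nerve, 8.79 and 9.31 in mutant uncut nerve, and 6.05 and 5.75 in control uncut nerve. For both genes the control uncut arrays lay below the array median and the other 6 arrays above it, with no overlap. Because the nerve was measured whole, fewer cells of a type and less RNA per cell cannot be told apart.

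The cut in control mice went with a Krt8 level higher by 3.63 ± 0.27 (log2 difference ± SE of the limma fit) and a Krt18 level higher by 4.91 ± 0.33, about 12.4-fold and 30.1-fold. In mutants the same differences were 0.39 ± 0.27 and 1.61 ± 0.33, from uncut levels that already stood high. Between the cut groups Krt8 was lower by 0.66 on the log2 scale in mutants (-0.66 ± 0.27), and Krt18 overlapped (-0.15 ± 0.33). The Krt18 difference turned to 0.13 without mutant cut replicate 1 and to 0.31 without control cut replicate 2. The 3 Krt8 probe sets gave the same picture: the other 2 read 7.82 to 9.27 on the 6 arrays outside control uncut nerve and 4.54 to 5.69 in control uncut nerve. These differences were in view when the genes were picked, so they are given as a description, with no test.

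Krt19 and Krt7 did not follow Krt8 and Krt18. Krt19 read 6.82 and 7.40 in mutant cut nerve, 7.55 and 7.13 in control cut nerve, 8.52 and 8.95 in mutant uncut nerve, and 8.05 and 7.80 in control uncut nerve. It was lower in cut than in uncut nerve in both genotypes, by -1.62 ± 0.24 in mutants and -0.58 ± 0.24 in controls, and its highest arrays were the 2 of mutant uncut nerve. Krt7 stayed within 5.92 to 6.73 on all 8 arrays, close to the array median, with 6.14 and 5.92 in mutant cut nerve, 6.65 and 6.12 in control cut nerve, 6.60 and 6.73 in mutant uncut nerve and 6.13 and 5.98 in control uncut nerve. Of the 4 simple keratins, then, 2 were higher and 1 was lower on both cut arrays than on both uncut arrays in controls, where 41.5% and 31.6% of all genes tested were, and Krt7 overlapped.

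Clca3a2 had the largest difference of the 10 genes between cut and uncut control nerve. It read 7.72 and 9.30 in mutant cut nerve, 10.74 and 11.04 in control cut nerve, 7.35 and 7.68 in mutant uncut nerve, and 3.81 and 4.66 in control uncut nerve. Both control uncut values were under 4.95, the lowest of the 25th percentiles, so the dim end is poorly measured. The cut differences were 6.66 ± 0.48 in controls (101-fold) and 0.99 ± 0.48 in mutants. Mutant cut arrays both lay below control cut arrays (-2.38 ± 0.48), while mutant uncut arrays both lay above control uncut arrays. The 2 mutant cut arrays differed from each other by 1.58, and the genotype difference in cut nerve was -1.59 without replicate 1 of that group and -3.17 without replicate 2.

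The other Clca3a2 probe sets and its neighbours were read beside it, since Clca3a1 and Clca3b adjoin it on chromosome 3 and near-identical copies can share probes. A second probe set of Clca3a2 alone read 3.88 and 5.38 in mutant cut nerve, 6.96 and 7.39 in control cut nerve, 4.02 and 3.96 in mutant uncut nerve, and 2.89 and 2.86 in control uncut nerve. It was dimmer, below the 25th percentile on 5 of the 8 arrays, so many of its values are poorly measured. Its group means had the same order, with 4.30 for the cut in controls and 0.64 in mutants, where the arrays overlapped. Between uncut nerves the genotype difference was 1.11, against 3.28 on the first probe set. A probe set annotated to both Clca3a2 and Clca3a1 read 8.62 and 9.61 in mutant cut nerve, 11.01 and 11.09 in control cut nerve, 8.21 and 8.30 in mutant uncut nerve, and 6.45 and 6.48 in control uncut nerve. Clca3a1 on its own probe set rose after the cut by 2.06 in controls (limma, adjusted p = 1.0e-04) and read 8.00 and 8.19 in mutant cut nerve, 9.01 and 8.88 in control cut nerve, 7.63 and 7.45 in mutant uncut nerve and 6.64 and 7.15 in control uncut nerve. Clca3b stayed below the array median throughout, with its highest values, 5.10 and 6.02, in control cut nerve. Of 6 other Clca genes on the array, only Clca3a1 was bright enough to test. How far the probe sets of these near-identical copies read each other's RNA was not tested.

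**Figure D1:**
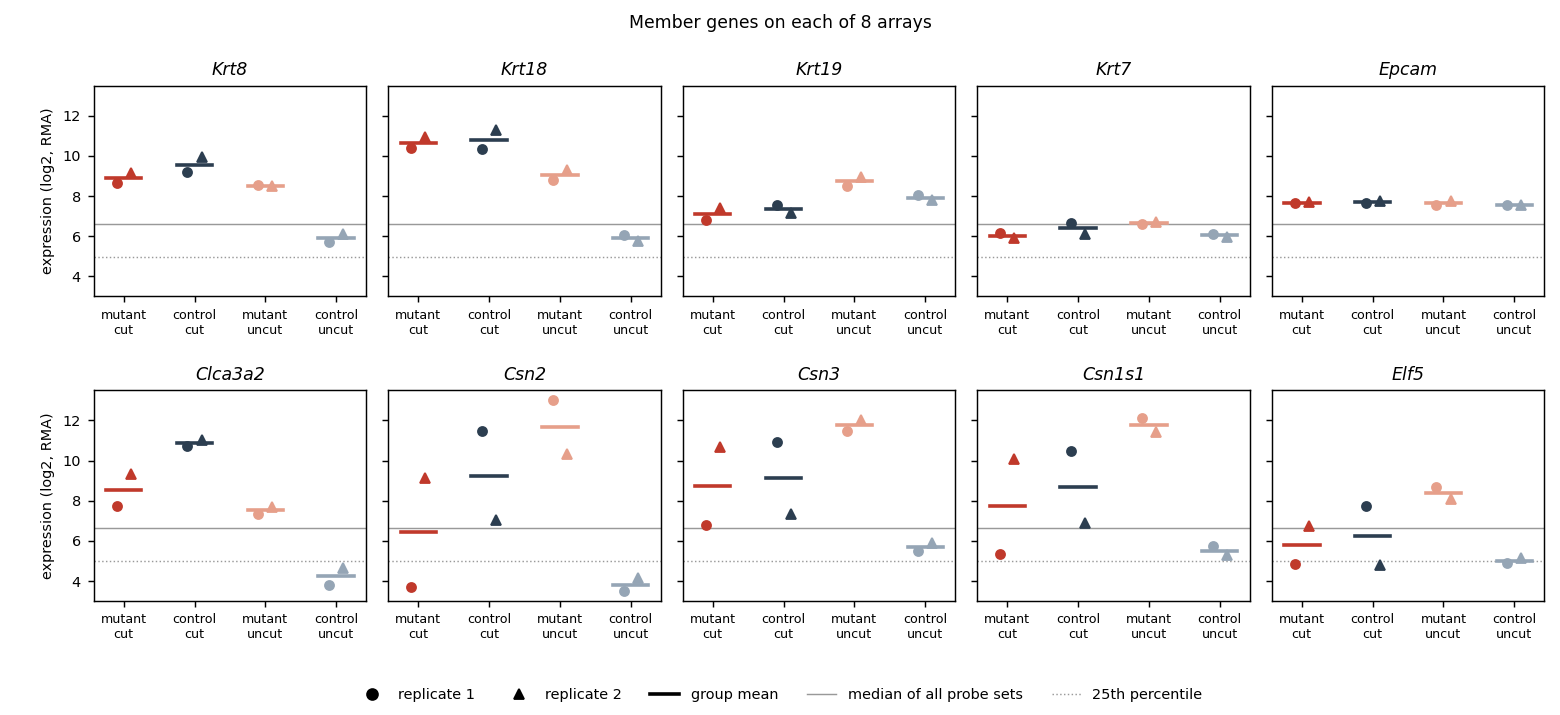
Expression (log2, RMA) of the 10 genes on each of 8 arrays; each panel has the groups mutant cut, control cut, mutant uncut and control uncut from left to right, circles for replicate 1, triangles for replicate 2, bars for group means, and grey lines for the median (solid) and 25th percentile (dotted) of all probe sets. Krt8, Krt18 and Clca3a2 are low in control uncut nerve alone, while in each cut group Csn2, Csn3, Csn1s1 and Elf5 are high on 1 array and lower on the other.

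The milk protein genes differed widely between replicate arrays of each cut group. Csn2 read 3.69 and 9.15 in mutant cut nerve, 11.47 and 7.03 in control cut nerve, 13.01 and 10.33 in mutant uncut nerve, and 3.50 and 4.14 in control uncut nerve. Csn3 read 6.80 and 10.70 in mutant cut nerve, 10.90 and 7.33 in control cut nerve, 11.48 and 12.03 in mutant uncut nerve, and 5.48 and 5.90 in control uncut nerve. Csn1s1 read 5.35 and 10.07 in mutant cut nerve, 10.49 and 6.89 in control cut nerve, 12.10 and 11.42 in mutant uncut nerve, and 5.74 and 5.28 in control uncut nerve. In each of the 3 genes the same 4 arrays were brightest: both mutant uncut arrays, mutant cut replicate 2 and control cut replicate 1.

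Elf5 and a second Epcam probe set were brightest on the same 4 arrays. Elf5 read 4.85 and 6.74 in mutant cut nerve, 7.72 and 4.78 in control cut nerve, 8.70 and 8.06 in mutant uncut nerve, and 4.90 and 5.13 in control uncut nerve. A second Elf5 probe set was dim and flat, between 4.90 and 5.38. The 2 Epcam probe sets disagreed. The brighter one, which stands for the gene in the fit, was flat at 7.53 to 7.76, and the other read 5.64 and 7.30 in mutant cut nerve, 7.37 and 5.80 in control cut nerve, 8.44 and 8.43 in mutant uncut nerve, and 5.54 and 5.49 in control uncut nerve. The plot of every probe set shows both.

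**Figure D2:**
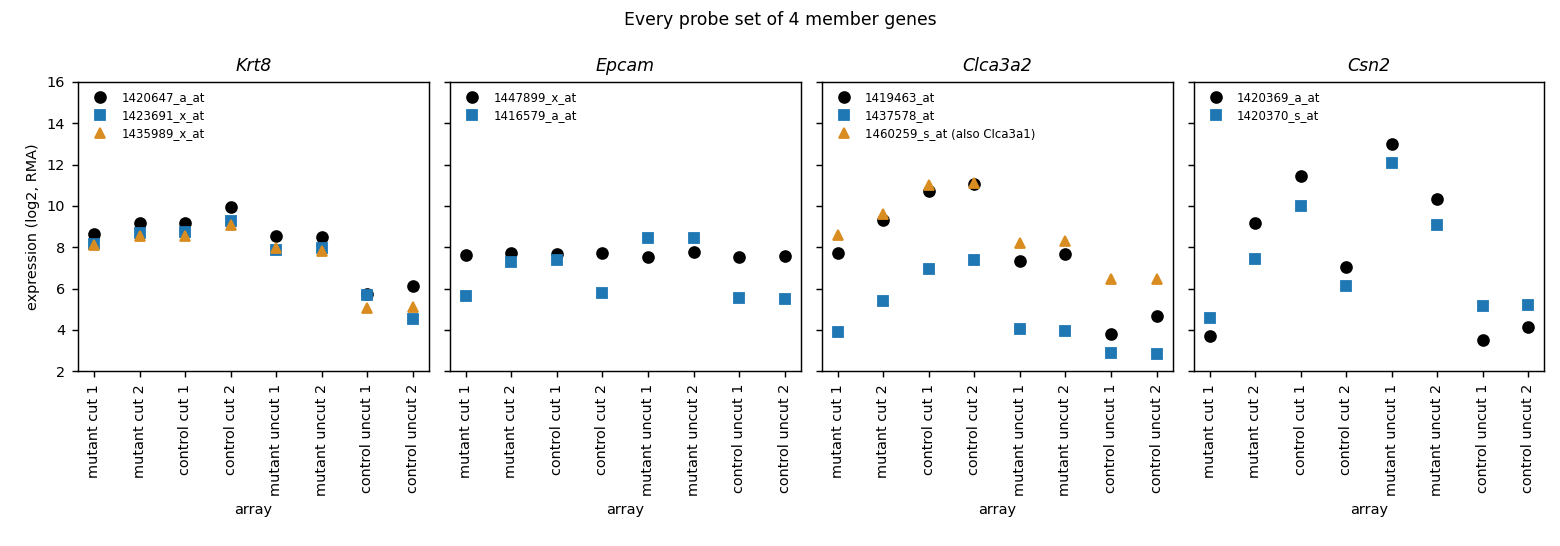
Expression (log2, RMA) of every probe set of Krt8, Epcam, Clca3a2 and Csn2 on each of 8 arrays, ordered mutant cut, control cut, mutant uncut and control uncut; 1 point per probe set and array. The probe sets of Krt8, of Clca3a2 and of Csn2 share the order of the group means, while 1 Epcam probe set is flat and the other reads 8.43 to 8.44 in mutant uncut nerve.

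The gap between replicate arrays set the milk protein genes apart from the keratins in size. Within mutant cut nerve, replicate 2 exceeded replicate 1 by 5.47 in Csn2, 3.90 in Csn3, 4.72 in Csn1s1 and 1.89 in Elf5, against 0.53 in Krt8, 0.56 in Krt18 and 1.58 in Clca3a2. Within control cut nerve, replicate 1 exceeded replicate 2 by 4.44 in Csn2, 3.58 in Csn3, 3.60 in Csn1s1 and 2.94 in Elf5, while Krt8, Krt18 and Clca3a2 went the other way, at -0.74, -0.92 and -0.30. So the casein-rich array had less Krt8, Krt18 and Clca3a2 signal on the control cut pair and more of all 3 on the mutant cut pair. Krt19 was higher on the casein-rich array of both pairs, by 0.58 in mutant cut and 0.42 in control cut nerve, and Krt7 differed by -0.22 and 0.53.

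**Figure D3:**
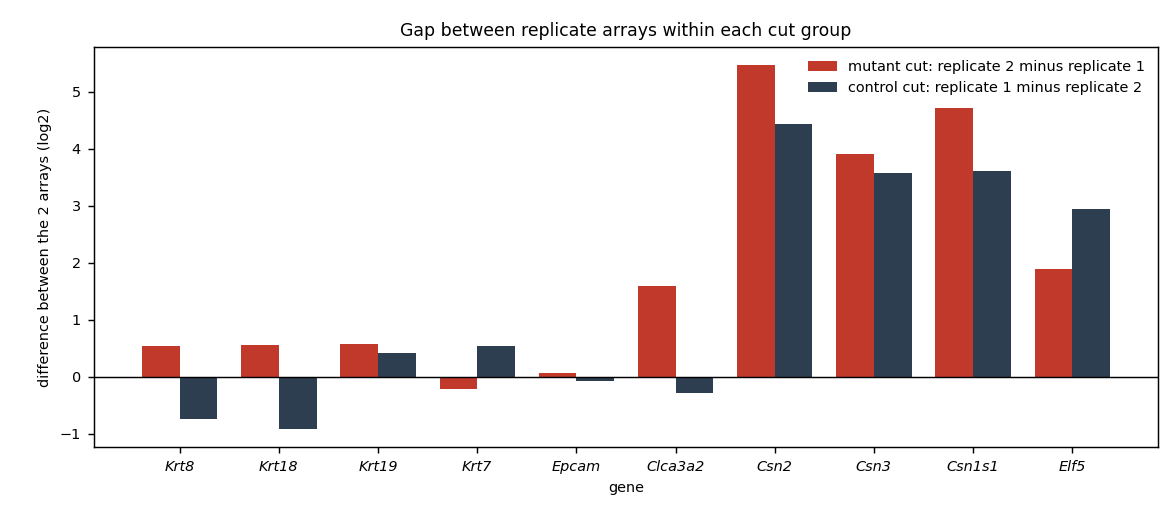
Difference between the 2 arrays of each cut group (log2) for the 10 genes; red bars give replicate 2 minus replicate 1 of mutant cut nerve and dark bars replicate 1 minus replicate 2 of control cut nerve. Casein gaps reach 5.47, keratin gaps of Krt8 and Krt18 stay within 0.92 in size, and in control cut nerve they point the other way.

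The cut arrays with less casein signal give the keratin values beside a lower milk protein level. On mutant cut replicate 1 the 3 caseins averaged 5.28, against 4.91 and 5.11 in control uncut nerve. Csn3 read 6.80 there, above the array median of 6.63 and above its 5.48 and 5.90 in control uncut nerve. Krt8, Krt18 and Clca3a2 read 8.63, 10.38 and 7.72 on that array. On control cut replicate 2 the caseins averaged 7.08, and the same 3 genes read 9.92, 11.27 and 11.04. Without the other 2 cut arrays, the cut difference in controls was 4.00 for Krt8, 5.37 for Krt18 and 6.80 for Clca3a2, while it was 3.21 for Csn2, 1.64 for Csn3 and 1.38 for Csn1s1. In mutants it was 0.12 for Krt8, 1.33 for Krt18 and 0.20 for Clca3a2. The remaining control cut array still had all 3 caseins above the array median. In uncut mutant nerve no such array exists: both arrays were rich in casein, averaging 12.20 and 11.26, and whether the keratin and Clca3a2 levels there are tied to the milk protein signal was not tested.

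**Figure D4:**
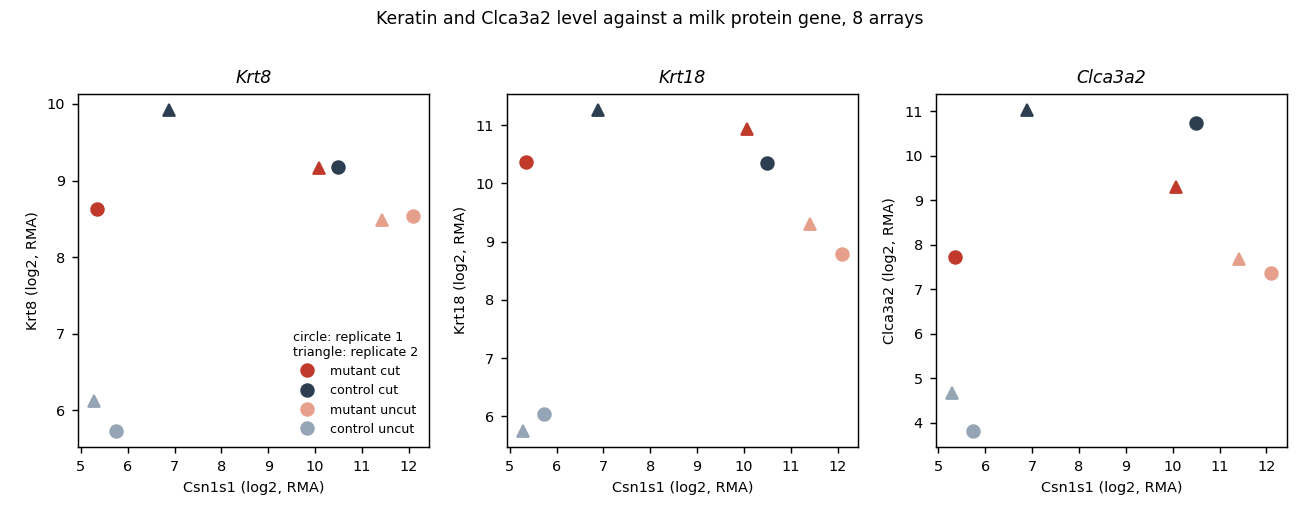
Level of Krt8, Krt18 and Clca3a2 (vertical, log2, RMA) against Csn1s1 (horizontal, log2, RMA) on 8 arrays; colours mark the groups, circles replicate 1 and triangles replicate 2. The 4 cut arrays are high in Krt8 and Krt18 across Csn1s1 levels of 5.35 to 10.49, and the mutant uncut arrays lie at high Csn1s1 and high keratin together.

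Read as group means, the milk protein genes had wide errors. In controls, cut minus uncut nerve, Csn2 differed by 5.43 ± 1.94, Csn3 by 3.42 ± 1.37, Csn1s1 by 3.18 ± 1.54 and Elf5 by 1.24 ± 0.92. In mutants the same differences were -5.25 ± 1.94 for Csn2, -3.01 ± 1.37 for Csn3, -4.04 ± 1.54 for Csn1s1 and -2.59 ± 0.92 for Elf5. Between mutant cut and control cut nerve the arrays overlapped, with -2.83 for Csn2, -0.37 for Csn3, -0.98 for Csn1s1 and -0.46 for Elf5.

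The 10 genes can be counted beside the background of all genes tested. In controls, 3 of the 10 were called higher after the cut (Krt8, Krt18 and Clca3a2) and 0 lower, where 40.3% of the 12094 genes were called (22.8% higher and 17.5% lower). In mutants 1 was called higher (Krt18) and 2 lower (Krt19 and Krt7), where 36% of genes were called (18.1% higher and 17.8% lower). Between mutant cut and control cut nerve 0 of the 10 were called by limma, where 1.09% of genes were (0.38% higher and 0.711% lower), and 2 had an unadjusted p under 0.05. The interaction, the cut difference in mutants minus that in controls, was called lower for Krt8 and Clca3a2, where 0.165% of genes were called (0.0661% higher and 0.0992% lower). By array, both control cut arrays lay above both control uncut arrays in 7 of the 10 genes and below them in 1, where 41.5% and 31.6% of all genes did so. Both mutant cut arrays lay above both mutant uncut arrays in 3 and below them in 6, against 35.8% and 35.2% of all genes, and below both control cut arrays in 2 (Krt8 and Clca3a2), against 20.1%. The values behind these counts chose the genes, so nothing is read from them. The medians over the 10 were 3.30 for the cut in controls, -1.13 for the cut in mutants, -0.41 between cut groups and -3.56 for the interaction, against 0.05, 0.00, -0.01 and -0.05 over all genes tested.

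**Figure D5:**
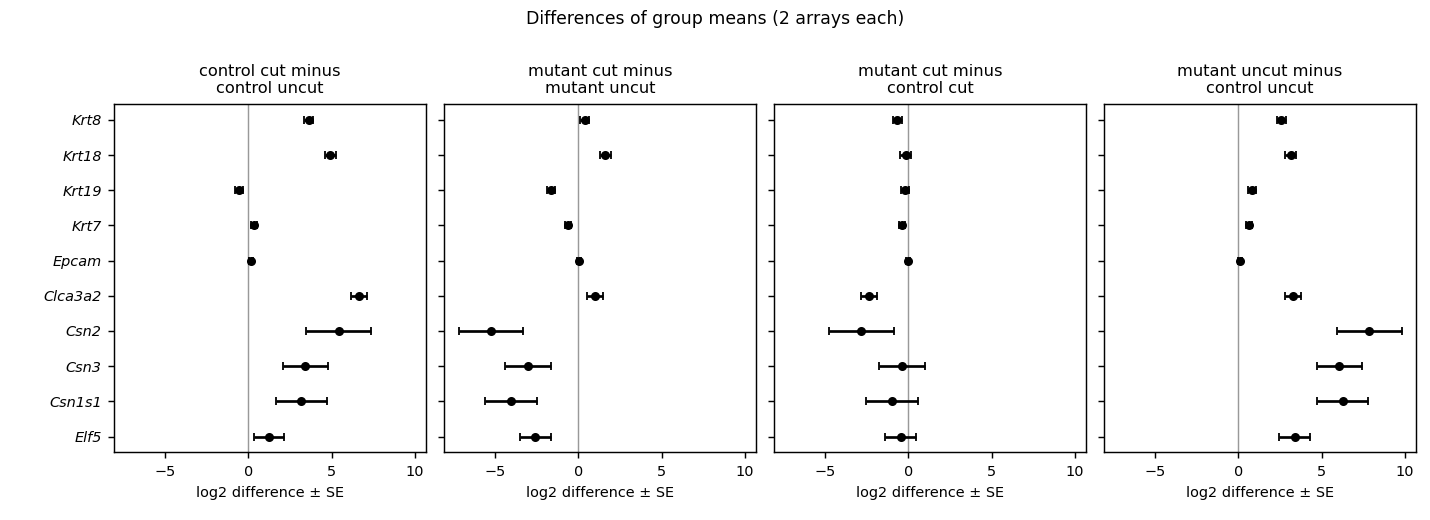
Differences of group means (log2, horizontal) with their SE from the limma fit (bars) for the 10 genes (rows) in 4 comparisons of 2 arrays against 2; a value right of 0 is higher in the group named first. Krt8, Krt18 and Clca3a2 lie right of 0 in the cut comparison of controls and in the uncut comparison of genotypes, and the caseins lie left of 0 in the cut comparison of mutants.

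In uncut nerve, both mutant arrays lay above both control arrays in 9 of the 10 genes, all but Epcam, where 17.9% of all genes tested did so and 9.25% lay below. Krt18 was higher by 3.15 ± 0.33, Krt8 by 2.59 ± 0.27 and Clca3a2 by 3.28 ± 0.48 (log2 difference ± SE). The caseins had larger differences and wider errors, with 7.85 ± 1.94 for Csn2, 6.25 ± 1.54 for Csn1s1 and 6.06 ± 1.37 for Csn3. Elf5 differed by 3.37 ± 0.92, Krt19 by 0.81 ± 0.24, Krt7 by 0.62 ± 0.18 and Epcam by 0.11 ± 0.10. The Epcam value is that of its flat probe set. The other Epcam probe set differed by 2.92, with 8.44 and 8.43 in mutants against 5.54 and 5.49 in controls.

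Limma over all 8 arrays called 0 of the 10 genes and 0 of the 12094 tested in this comparison (0% called), where 9 of the 10 genes and 322 of all genes had an unadjusted p under 0.05. Fitted to the 4 uncut arrays alone it called 6 of the 10 (Krt8, Krt18, Clca3a2, Csn3, Csn1s1 and Elf5). With the replicate number as a block it called 3 of them (Krt8, Krt18 and Clca3a2). The 0% above belongs to the fit over all 8 arrays. The shares of all genes called under these 2 other fits are not given here, so the counts cannot be set against it. The spread shared with the cut arrays was wide for the caseins: the SD of Csn1s1 was 3.34 in mutant cut and 2.55 in control cut nerve, against 0.48 in mutant uncut and 0.33 in control uncut nerve (n = 2 each). The median difference of the 10 was 3.22, against 0.03 over all genes tested. The uncut arrays too were in view when the genes were picked, so these counts are a description and nothing is read from them.

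Genes of the same pathways and of tissues that carry keratins or caseins were read from 11 lists of 125 genes, none among the 10. The annotation names 117 of them, and 53 were bright enough to test. In controls 6 rose and 16 fell after the cut, where 22.8% of all genes tested were called higher and 17.5% lower. In mutants 7 rose and 23 fell, against 18.1% and 17.8% of all genes. Between cut nerves 4 were higher and 1 lower in mutants, against 0.38% and 0.711%. The counts of calls in single lists below stand beside these same shares, and nothing is read from them. In uncut nerve limma called 0, under the main setting and all 18 alternatives, with 14 at an unadjusted p under 0.05.

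Of the other milk genes, Csn1s2a, Btn1a1 and, by a small margin, Lalba were brightest on the same 4 arrays as the caseins. Lalba read 6.47 to 6.97 on them and 5.92 to 6.37 on the rest. Glycam1, at 5.07 to 6.57, did not share this order. Csn1s2a, a further casein, read 4.999 and 7.56 in mutant cut nerve, 10.22 and 5.59 in control cut nerve, 12.83 and 9.18 in mutant uncut nerve, and 4.71 and 4.65 in control uncut nerve. Btn1a1, a protein of the milk fat globule membrane, read 5.64 and 7.83 in mutant cut nerve, 7.34 and 6.17 in control cut nerve, 7.55 and 8.79 in mutant uncut nerve, and 5.15 and 5.60 in control uncut nerve. Of the 9 milk and mammary genes 5 were tested; in controls 0 were called, and in mutants 1 fell. Whey acidic protein (Wap) stayed at 5.96 to 6.20 except on mutant uncut replicate 1, at 7.08. Csn1s2b (3.43 to 3.86) and Olah (4.41 to 4.61) were dim and flat, Lao1 read 6.33 to 7.41, and Xdh, an oxidase of many tissues, was bright throughout at 9.37 to 10.15 and lowest on mutant uncut replicate 2. The list as a whole averaged 5.86 to 6.37 in mutant cut, 6.02 to 6.81 in control cut, 6.79 to 7.37 in mutant uncut and 5.77 to 5.80 in control uncut nerve. Of 6 annotated regulators of mammary luminal cells 3 were tested and 0 passed in any comparison; the dim Foxa1, a factor of luminal cells, read 5.01 and 5.66 in mutant cut nerve, 5.56 and 4.95 in control cut nerve, 6.45 and 6.38 in mutant uncut nerve, and 4.91 and 5.24 in control uncut nerve. Foxa1 was thus higher on the same 4 arrays, all below the array median. The dim Gata3 was too, at 5.41 to 6.05 against 4.58 to 4.73, and Stat5a by less, at 8.63 to 8.73 against 8.31 to 8.55. Stat5b, Esr1 and Pgr did not share this order. The part of glandular RNA in the values of the 10 genes was not tested.

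Of 26 annotated epithelial junction and regulator genes 9 were tested; in controls 3 fell after the cut and 0 rose. Cdh1 (E-cadherin, which myelinating Schwann cells also carry) fell by 5.65 in controls (limma, adjusted p = 2.5e-06), Spint1, a protease inhibitor, fell by 1.77 and Lad1, an anchoring filament protein, fell by 0.81. In cut nerve Cdh1 was higher in mutants, at 8.43 and 8.27 against 6.23 and 5.58 in controls, a difference of 2.44 (adjusted p = 0.00399, and at most 0.0303 under the 18 alternatives). The list averaged 5.74 to 5.96 in mutant cut, 5.73 to 5.95 in control cut, 6.41 to 6.53 in mutant uncut and 6.09 in control uncut nerve, so it was highest in mutant uncut nerve. Among its members, chosen after their values were seen, Cldn3 and Cldn7 (claudins of tight junctions), the splicing factor Esrp1 and the transcription factor Grhl1 were higher on both mutant uncut arrays than on both control uncut arrays. Limma made no call for Cldn3, and the other 3 were too dim to test. Of all genes tested, 17.9% lay above in this way. The list was not uniform. Cdh1 (11.34 and 11.35 against 11.65 and 11.47) and Cgn (6.07 and 6.22 against 6.24 and 6.28) were lower on both mutant uncut arrays. Ehf, Esrp2 and Marveld3 overlapped. Cldn3 read 8.13 and 7.80 against 7.21 and 7.25, Cldn7 6.77 and 5.77 against 4.71 and 4.93, Esrp1 6.48 and 5.78 against 4.51 and 4.46, and Grhl1 7.43 and 6.33 against 5.76 and 5.72 in control uncut nerve.

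The keratins of layered epithelia had few calls. Of 14 genes 5 were tested, 0 passed in controls, and 1 (Krt5) fell in mutants, and the list averaged between 5.52 and 5.67 on all 8 arrays. Krt14, the partner of Krt5 in skin and in basal and myoepithelial cells, stayed below the array median on all arrays. Of 11 skin keratinocyte genes 2 were tested, of which Perp fell by 1.05 in controls (adjusted p = 0.00427). The list averaged 5.31 to 5.38 in mutant cut, 5.34 to 5.44 in control cut, 5.59 to 5.67 in mutant uncut and 5.52 to 5.58 in control uncut nerve.

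Of 5 genes of mesothelium, another tissue with Krt8 and Krt18, 2 were bright enough to test. Both fell in controls, with -2.29 for Wt1 (limma, adjusted p = 1.9e-04) and -0.90 for Msln (0.0109), and both fell in mutants. The Msln call in controls was lost without control cut replicate 2 or without either control uncut array (adjusted p of 0.0509 to 0.0559). The list averaged 5.58 to 5.59 in mutant cut, 5.57 to 5.83 in control cut, 6.24 to 6.27 in mutant uncut and 6.23 to 6.25 in control uncut nerve.

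Of 10 annotated salivary and sweat gland genes 5 were tested. In controls Slc12a2, an ion cotransporter, fell by 1.56 (adjusted p = 4.3e-05), Amy1 fell by 1.21 and the water channel Aqp5 rose by 0.84 (0.0475). In cut nerve Aqp5 was higher in mutants, at 8.34 and 8.41 against 6.77 and 6.40 in controls, a difference of 1.79 (adjusted p = 0.0319), and Slc12a2 by 0.81 (0.0212). These genotype calls were lost under several omissions of a single array (adjusted p up to 0.181 for Aqp5 and 0.136 for Slc12a2), and the Aqp5 call in controls was lost without any 1 of the 6 arrays other than the mutant uncut pair (up to 0.212). The list averaged 6.40 to 6.52 in mutant cut, 6.22 to 6.26 in control cut, 6.45 to 6.51 in mutant uncut and 6.30 to 6.42 in control uncut nerve.

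Genes of desmosomal and linker proteins, which tie keratin filaments to the cell border, were read in the same way. Of 12 annotated genes 7 were tested; in controls 0 rose and 2 fell, Ppl (periplakin) by 1.12 (adjusted p = 0.00357) and Pkp2 (plakophilin 2) by 1.01 (0.00926), and in mutants 4 fell. The Pkp2 call in controls was lost without control cut replicate 2 (0.0577) or control uncut replicate 1 (0.0562). Dsp (desmoplakin) lay below the median on all arrays but higher on those rich in casein, at 4.48 and 5.51 in mutant cut, 5.06 and 4.19 in control cut, 5.83 and 6.00 in mutant uncut, and 3.80 and 4.15 in control uncut nerve.

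Other intermediate filament genes changed in both directions. Of 13 genes 9 were tested, and in controls 4 rose and 2 fell: Des (desmin, of muscle) rose by 2.71 (adjusted p = 6.8e-05), while Nefl (a neurofilament) fell by 3.22 (2.5e-05) and Prph (peripherin, of peripheral neurons) fell by 1.26. In cut nerve Nes (nestin) was lower by 0.90 in mutants (-0.90, adjusted p = 0.0236), a call lost without any 1 of the cut or control uncut arrays (up to 0.143). Of the Schwann cell genes 4 of 5 fell in controls, with -2.83 for Pmp22, -2.76 for Egr2 and -2.38 for Mbp, and Mbp was higher by 0.99 in mutant cut nerve than in control cut nerve (0.0212), a call lost without mutant cut replicate 1, control cut replicate 1 or either control uncut array (up to 0.115).

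The genes with the most similar profile over the 8 arrays were found by the root mean square distance between profiles, each centred on its own mean (log2 units). Krt18 was the nearest to Clca3a2 (0.94), and Krt8 the nearest to Krt18 (0.72), with Clca3a2 next. Mmp12, a macrophage elastase, and Nuf2, a kinetochore protein, came after them for Krt18 (0.984 and 1.003), and the growth factor Fgf5 (1.17), Krt8 (1.17) and the peptide hormone Ucn2 (1.20) for Clca3a2. Krt8 had D17H6S56E-5 (0.66), Krt18, Lrrtm2 (0.79) and Arg1, an arginase (0.80). In uncut mutant nerve, where Krt8 read 8.54 and 8.48, Fgf5 read 4.46 and 4.97 against 4.43 and 4.25 in uncut controls, and Ucn2 read 5.33 and 4.89 against 4.81 and 4.65. For Csn2 the nearest were Csn1s1 (1.11), Csn1s2a (1.13), Csn3 (1.42) and Muc15, a mucin of the milk fat globule membrane, known from cattle (2.08). Muc15 read 4.54 and 6.18 in mutant cut nerve, 6.37 and 4.73 in control cut nerve, 9.25 and 7.29 in mutant uncut nerve, and 4.45 and 3.91 in control uncut nerve. For Krt19 they were Chil1 (0.21), Igfals (0.23), Car4 (0.24) and Mvd (0.25), and no casein or keratin was among them.

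Transcripts that differ between the sexes were read as well. Xist, transcribed from the inactive X chromosome of females, read 12.09 to 12.64 over the 8 arrays on its brightest probe set. Its other probe sets read 11.39 to 12.58 and 7.73 to 8.92. All 9 probe sets of 3 Y-linked genes read 2.92 to 4.44, below the 25th percentile on each array. These genes were chosen after their values were seen.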

How the data were processed

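Total RNA (RiboPure kit) was labelled as biotinylated cRNA for 1-colour Affymetrix arrays, per the labels' protocols. The deposited log2 values, for 45101 probe sets, were made with RMA and affy, per the submitters' processing notes, and used unchanged. Software versions and scan dates are not stated there, so batches were not tested, and the number of arrays limits the precision. RMA narrows differences of dim probe sets.

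A probe set was kept if above its array's median on at least 2 arrays, and a gene was read from the brightest kept one. All 10 genes passed, with 15 of 17 probe sets of their own. With R 4.3.3 and limma 3.58.1, group means were fitted to all 8 arrays (4 residual degrees of freedom), with two-sided Benjamini-Hochberg adjustment over 12094 genes at 0.05, and the fit was tested on simulated data. The p-values measure the spread between pools. Named genes are the 10, up to 3 called genes of largest difference per list (cut against uncut controls, mutant against control cut nerve), the 4 nearest profiles of 5 of the 10, and Jun; others were chosen after their values were seen. The 10 genes and the lists were chosen with earlier results of these data known, so the planned test of the 10 between uncut nerves is given as a description. Alternatives were other filters, probe set rules, normalisations, variance models, a replicate block, only the 4 arrays compared, and omission of each array.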

Additional observations from a re-analysis of the deposited data

Results flagged for a closer look

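Among the 10 genes and the listed genes, the interaction term of the limma fit passed the threshold for 3, where 0.165% of the 12094 genes tested were called. The term is the cut difference in mutants minus that in controls. It was -3.24 for Krt8 and -5.66 for Clca3a2 on the log2 scale, which are given as values, since these genes were chosen with them in view; the term stayed past the threshold in 10 of 17 alternatives for Krt8 and 9 of 17 for Clca3a2. For both genes it was lost in every omission of a single array except mutant cut replicate 2, and for Clca3a2 also with trended and robust variances. In uncut nerve, where both mutant arrays were rich in casein, mutants differed from controls by 2.59 in Krt8 and 3.28 in Clca3a2. In cut nerve these genotype differences were -0.66 and -2.38. For Cdh1 the interaction term was 2.65, with 8.43 and 8.27 in mutant cut nerve, 6.23 and 5.58 in control cut nerve, 11.34 and 11.35 in mutant uncut nerve, and 11.65 and 11.47 in control uncut nerve. It stayed past the threshold in 12 of 17 alternatives and was lost without mutant cut replicate 1 or any 1 of the uncut arrays (limma, adjusted p of 0.119 to 0.162).

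For 3 caseins, both cut arrays lay above both uncut arrays in controls and below them in mutants. The difference between these cut differences was -10.67 for Csn2, -6.43 for Csn3 and -7.22 for Csn1s1. As the interaction term of the limma fit it was not called (adjusted p = 0.321 for Csn2 and 0.474 for Csn3 and for Csn1s1). Each of these values rests on 1 cut array of each genotype with high casein levels and 1 with lower levels. On the lower control cut array all 3 caseins still lay above the array median.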

How the results depend on the processing

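With 2 arrays in a group, counts of calls moved with the setting, and called differences of the 10 genes, of Jun between cut nerves, and of the listed genes named for the cut in controls and between cut nerves kept their sign in the 17 or 18 alternatives that gave a value. Of the 10 genes, 3 were called for the cut in controls, 3 for the cut in mutants, 0 between cut nerves, 0 between uncut nerves and 2 for the interaction. Leaving out 1 array at a time gave 3 to 7, 2 to 6, 0 to 1, 0 to 2 and 0 to 3 in that order, and the listed genes gave 18 to 22, 22 to 30, 1 to 5, 0 to 0 and 0 to 1, against 22, 30, 5, 0 and 1. With a gene's probe sets averaged, 1 of the 10 was called between cut nerves, 1 between uncut nerves, and 3 listed genes for the interaction. With probe sets as units the 10 genes had 5 calls for the cut in mutants, 1 between cut nerves and 1 between uncut nerves. Trended and robust variances left 1 call among the 10 for the interaction, and the filter at the 75th percentile left 18 listed genes for the cut in mutants. With only the 4 arrays compared, the 10 genes had 6 calls for the cut in controls and 6 between uncut nerves, and the listed genes 2 between cut nerves; the interaction could not be fitted there. Without control cut replicate 1 and mutant cut replicate 2, the cut arrays richer in casein, an alternative chosen after seeing the data, the 10 genes had 6 calls for the cut in controls, 7 in mutants, 1 between cut nerves, 6 between uncut nerves and 5 for the interaction, and the listed genes 1 between cut nerves. The numbers of all genes called under each alternative are not given beside these counts, nor for the replicate block below. So the moves cannot be told from a general change in calls, and nothing is read from them. Their cause was not tested.

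The labels do not say that replicate numbers pair arrays, and deviations of same-numbered arrays correlated by 0.02 to 0.34 over 6 pairs of groups. With the replicate number as a block, the 10 genes had 1 call between cut nerves (Clca3a2), 3 between uncut nerves, 4 for the cut in mutants (Clca3a2 added) and 3 for the interaction (Krt18 added), and the listed genes had 23 calls for the cut in controls and 32 in mutants.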
